A study of Mus musculus with 6 samples.

Results

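The genes described here are 10 chemokine ligands, chosen by symbol: the CXC ligands Cxcl1, Cxcl2, Cxcl3, Cxcl5, Cxcl10, Cxcl12 and Cxcl16 and the CC ligands Ccl2, Ccl7 and Ccl20. They were chosen with earlier results of these data known. All 10 symbols have a row among the 55367 gene rows of the table. Expression was measured by RNA sequencing in cultured wild-type LLC cells (Lewis lung carcinoma of the mouse), grown with serum, after 46 h with the solvent DMSO (3 libraries) or with 5 µM STM2457 (3 libraries). STM2457 inhibits METTL3, the enzyme that places N6-methyladenosine (m6A) on RNA, and the comparison asks how transcript levels differ when that enzyme is inhibited. Whether the 3 libraries of a group came from separate cultures is not in the labels, so the p-values cover only the spread between these libraries, which may be technical.

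Chemokines are small secreted proteins that direct the migration of leukocytes along a gradient. CXC ligands with a glutamate-leucine-arginine motif before the first cysteines, among them CXCL1, CXCL2, CXCL3 and CXCL5 of the mouse, act on CXCR2 and draw neutrophils. CXCL10 acts on CXCR3 of activated T and NK cells, CXCL12 on CXCR4, and CXCL16, made as a membrane protein, on CXCR6. CCL2 and CCL7 act on CCR2 and draw monocytes, and CCL20 acts on CCR6. Many of these genes are switched on through NF-kappa-B, and their mRNAs are often short-lived because of AU-rich sequences near the 3′ end.

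The promoters shown here are those of 3 genes that fell after STM2457 (Cxcl1, Cxcl10 and Ccl20) and of 2 CXC genes that were barely read (Cxcl2 and Cxcl3), so that the letters can be set beside the values that follow. Each line gives the 250 bases before the RefSeq transcription start in GRCm38.p6, 5′ to 3′ in the direction of the gene, and capitals mark matches to the NF-kappa-B consensus on either strand. The windows are chr5:90890995-90891244 for Cxcl1, chr5:90903649-90903898 for Cxcl2, chr5:90785851-90786100 for Cxcl3 and chr1:83116516-83116765 for Ccl20, all on the plus strand, and chr5:92348890-92349139 on the minus strand for Cxcl10.
Cxcl1: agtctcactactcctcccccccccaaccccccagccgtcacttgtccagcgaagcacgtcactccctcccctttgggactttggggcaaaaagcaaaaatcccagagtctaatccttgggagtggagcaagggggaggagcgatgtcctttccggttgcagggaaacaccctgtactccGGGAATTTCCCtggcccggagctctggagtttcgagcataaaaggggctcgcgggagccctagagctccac
Cxcl2: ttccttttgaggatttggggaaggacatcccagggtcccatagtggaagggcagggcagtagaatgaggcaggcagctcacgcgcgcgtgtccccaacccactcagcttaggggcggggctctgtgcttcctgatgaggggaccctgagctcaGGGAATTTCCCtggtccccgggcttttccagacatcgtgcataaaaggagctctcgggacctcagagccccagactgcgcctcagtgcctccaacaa
Cxcl3: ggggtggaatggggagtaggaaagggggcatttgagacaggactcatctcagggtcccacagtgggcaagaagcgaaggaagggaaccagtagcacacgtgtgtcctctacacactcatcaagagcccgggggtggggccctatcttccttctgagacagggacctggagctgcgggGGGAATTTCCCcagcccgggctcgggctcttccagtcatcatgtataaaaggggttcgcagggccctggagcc
Cxcl10: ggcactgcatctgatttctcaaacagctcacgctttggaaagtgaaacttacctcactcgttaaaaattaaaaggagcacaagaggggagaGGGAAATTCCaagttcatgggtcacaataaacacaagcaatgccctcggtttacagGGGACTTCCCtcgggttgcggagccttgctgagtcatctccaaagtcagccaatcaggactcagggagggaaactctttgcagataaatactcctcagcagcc
Ccl20: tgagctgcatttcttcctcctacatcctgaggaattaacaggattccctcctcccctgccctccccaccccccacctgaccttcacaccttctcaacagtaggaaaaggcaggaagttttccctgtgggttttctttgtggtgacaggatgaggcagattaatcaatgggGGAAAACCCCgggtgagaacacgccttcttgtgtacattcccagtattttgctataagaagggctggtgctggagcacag
Promoters of 6 of the 10 ligands were in the RefSeq table, the sixth being that of Cxcl12. The NF-kappa-B consensus was found in 5 of these 6, all but Cxcl12, where 3.9% of all 32851 promoter windows of this length hold it. Cxcl1, Cxcl2 and Cxcl3 share the match GGGAATTTCC, which starts 71, 97 and 73 bases before the start in that order and also matches on the other strand 1 base further on. Cxcl10 holds a match starting 159 and another starting 103 bases before its start, and Ccl20 holds a match on the other strand starting 80 bases before its start. Of the other motifs searched on both strands, Cxcl10 alone among the 6 holds GAAA followed after any 2 bases by GAAA (2.98% of all windows), the form bound by interferon regulatory factors, and TGANTCA (6.75%), the form bound by AP-1. The ATF4 form TGATGNAA (3.45% of all windows) and the C/EBP form TTGCNNAA (9.56%) were found in 0 of the 6. TATAAA (12.4%) was found in Cxcl3, and the hypoxia-response core ACGTG (16.6%) in Cxcl1 and Cxcl3. A match describes these letters, not the binding of a factor.

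Of the 10 ligands, 4 fell after STM2457 (Cxcl1, Cxcl5, Cxcl10 and Ccl20), 0 rose, 3 did not pass the test (Ccl2, Ccl7 and Cxcl16) and 3 were too low to be tested (Cxcl2, Cxcl3 and Cxcl12). The falls took Cxcl5 to 0.249, Ccl20 to 0.261, Cxcl1 to 0.376 and Cxcl10 to 0.584 of the DMSO level. The test was limma on the deposited log2 values over 12618 genes with a mean of at least 10 reads, with Benjamini-Hochberg adjustment over all of them and a threshold of 0.05. By that test 25.7% of all tested genes were lower and 30.7% higher, and the median tested gene stood at 1.01 of its DMSO level. With 7 tested ligands their share is a coarse figure beside these, and only expressed ligands could pass the filter on low values. The median of the 7 was 0.584 of the DMSO level. Differences in the deposited log2 values are damped by the shrinkage built into them, so folds are given here from reads recovered from those values, fitted with limma-voom, with their 95% intervals, while adjusted p-values are those of limma on the deposited values unless another fit is named. A gene's reads in bulk RNA cannot tell fewer producing cells from less RNA per cell.

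The recovered reads in genes summed to 17671704 to 17917209 per library. These are sums of values recovered from the deposited log2 values, and the sequencing depth itself was not available. Mettl3 itself, with 468, 605 and 538 reads in DMSO and 502, 454 and 518 after STM2457, overlapped between the groups (adjusted p = 0.15). Centring on the upper quartile (0.04) or leaving out DMSO replicate 1 (0.0089) brought its adjusted p under the threshold as lower, and its exons share bases with Tox4 on the other strand. Most leukocyte markers were nearly absent: Ptprc and Csf1r had 0 or 1 read per library, Adgre1 and Itgam had 0 in all 6, and 13 of 18 listed markers stayed under 3 reads in every library. The list's summed reads were 284 to 310 in DMSO and 342 to 393 after STM2457, nearly all from Cd68 and Cd14. Cd14 rose 1.34-fold (adjusted p = 0.00034), and Cd68 did not pass (0.956, adjusted p = 0.68). Lung epithelial markers were also nearly absent, with Epcam, Cdh1 and Nkx2-1 at 0 in all 6 libraries and Krt8 at 0 to 3 reads, while the mesenchymal gene Vim had 46146 to 54075. Of the endothelial and fibroblast markers, Pecam1 and Cdh5 had 0 to 3 reads. Of that list's 7 tested genes 3 fell and 1 rose (Pdgfrb, 2.54-fold), where 25.7% of all tested genes were lower and 30.7% higher. The list's summed reads were 25989 to 27642 in DMSO and 19507 to 21655 after STM2457, most of them from Col3a1. The part of these markers in the results on chemokines was not tested.

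Among the neutrophil-attracting CXC ligands, Cxcl1 (ENSMUSG00000029380) was the most abundant by far. It is an early product of cells exposed to IL-1, TNF or IL-17 and a main CXCR2 ligand of the mouse. It had 2806, 4369 and 3314 reads in DMSO replicates 1 to 3 and 1342, 1275 and 1292 after STM2457. Every STM2457 library lay below every DMSO library, and the 3 STM2457 libraries lay close together while the DMSO libraries were spread, with replicate 2 on top. The deposited log2 values fell by 0.80 (SE 0.11, adjusted p = 0.0041), and the recovered reads fell to 0.376 of the DMSO level (95% interval 0.260 to 0.544). Without DMSO replicate 2 the fall was to 0.423 (0.387 to 0.462). Here and below, intervals and p-values without that library rest on DMSO replicates 1 and 3 alone on the DMSO side.

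Cxcl5 (ENSMUSG00000029371), another CXCR2 ligand, made by epithelial and stromal cells, had far fewer reads than Cxcl1 in every library. It had 118, 239 and 171 reads in DMSO and 42, 44 and 40 after STM2457. The groups did not overlap, and DMSO replicate 2 was again the highest library. The deposited log2 values fell by 0.56 (SE 0.11, adjusted p = 0.0081), and the reads fell to 0.249 of the DMSO level (0.134 to 0.460), or to 0.295 (0.229 to 0.380) without DMSO replicate 2.

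Cxcl2 and Cxcl3, the nearest relatives of Cxcl1 in sequence and receptor, were hardly read at all. Cxcl2 had 6, 6 and 10 reads in DMSO and 4, 5 and 6 after STM2457, and the groups touched at 6. Cxcl3 had 1, 2 and 5 reads in DMSO and 1, 1 and 0 after STM2457. At these depths no difference was detectable: without a filter on low values their adjusted p-values were 0.47 and 0.18. The 3 close paralogs may exchange reads in mapping, and the handling of reads with more than 1 match is not stated in the labels.

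**Figure D1:**
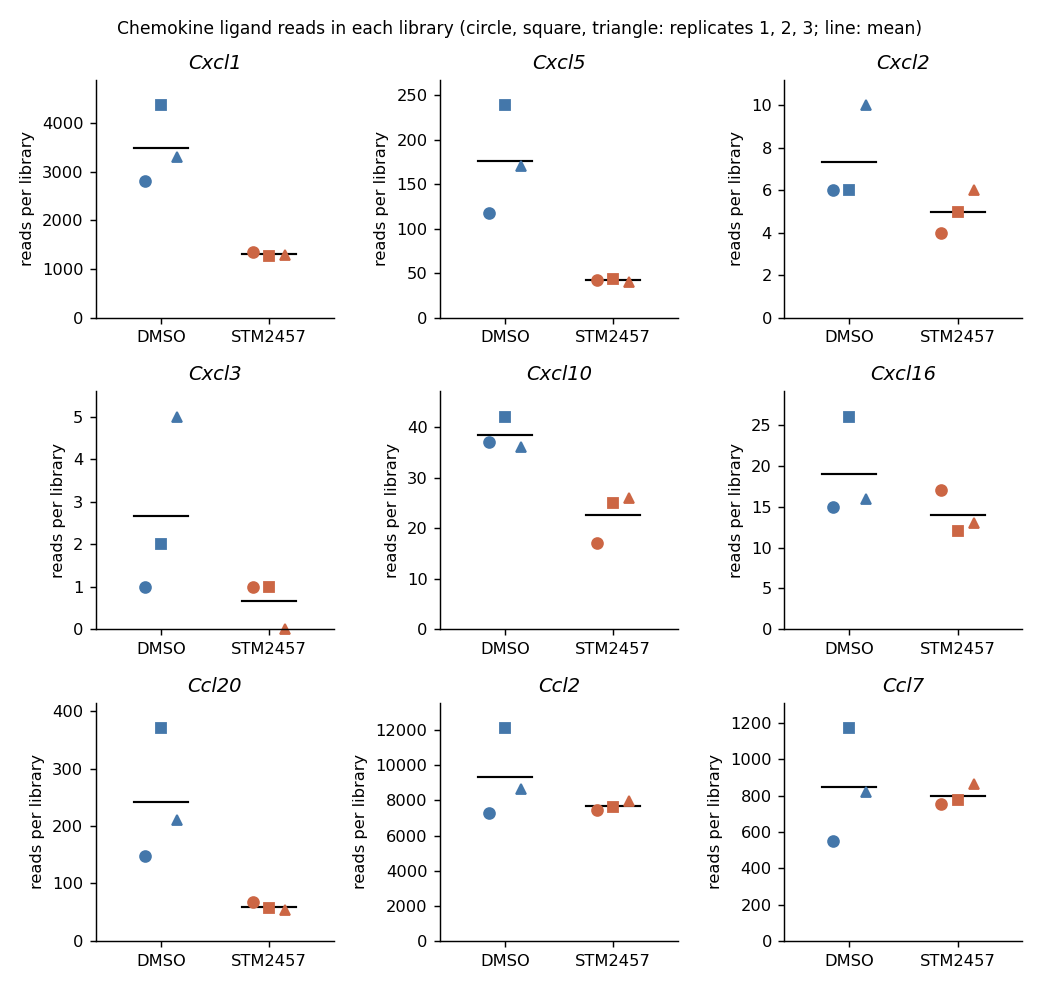
Recovered reads per library (linear axis from 0, a scale of its own in each panel) for the 9 chemokine ligands with at least 1 read, in DMSO and STM2457, with replicates 1, 2 and 3 as circle, square and triangle and the group mean as a line. In Cxcl1, Cxcl5, Cxcl10 and Ccl20 all STM2457 points lie below all DMSO points, and the DMSO square (replicate 2) is the highest point for Cxcl1, Cxcl5, Cxcl10, Cxcl16, Ccl20, Ccl2 and Ccl7.

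The CXC ligands that attract lymphocytes were low. Cxcl10 (ENSMUSG00000034855), an interferon-inducible gene, had 37, 42 and 36 reads in DMSO and 17, 25 and 26 after STM2457. The groups did not overlap, and here the DMSO libraries were the tighter group. Its deposited log2 values fell by 0.10 (SE 0.03, adjusted p = 0.0026), a change strongly shrunken at this depth, and its reads fell to 0.584 of the DMSO level (0.426 to 0.801). Its exons share 133 bases with Art3 on the other strand, which had 0 or 1 read per library.

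Cxcl16, which serves both as a soluble attractant and as an adhesion molecule and scavenger receptor at the membrane, had 15, 26 and 16 reads in DMSO and 17, 12 and 13 after STM2457. The groups overlapped. The ratio was 0.752 with an interval of 0.503 to 1.13 (adjusted p = 0.22), so that neither a fall to 0.503 nor a small rise lies outside it. Centring the libraries on their upper quartile, which shifts all genes down, made it pass as lower (adjusted p = 0.018). Its exons share 552 bases with Zmynd15 on the other strand, a gene of 0 to 6 reads. Cxcl12, the homeostatic ligand of CXCR4 that fibroblasts and bone marrow stroma make, had 0 reads in all 6 libraries, which allows up to 3 reads in each, or 0.167 to 0.170 CPM (reads scaled to a common library size), for counting error only.

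Among the CC ligands, Ccl20 was called lower and Ccl2 and Ccl7 were not called. Ccl20 (ENSMUSG00000026166), whose receptor CCR6 is carried by Th17 cells and immature dendritic cells, had 147, 370 and 210 reads in DMSO and 68, 57 and 53 after STM2457. No STM2457 library reached the lowest DMSO library, but the DMSO libraries differed among themselves more than those of any other tested ligand here (coefficient of variation 46.8%). The deposited log2 values fell by 0.64 (SE 0.17, adjusted p = 0.034) and the reads to 0.261 of the DMSO level, with a wide interval of 0.0902 to 0.758. The call depended on which libraries entered. With DMSO replicate 2 left out the adjusted p was 7.5e-09 and the ratio 0.334 (0.265 to 0.422). Those values rest on DMSO replicates 1 and 3 only, with the highest DMSO library removed. Leaving out DMSO replicate 3 instead gave an adjusted p of 0.086, and leaving out STM2457 replicate 1, 2 or 3 gave 0.09, 0.1 and 0.1. Testing all genes without the filter on low values (0.066) also ended the call.

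Ccl2 (ENSMUSG00000035385), the main monocyte attractant of many tumour lines, was the most abundant ligand in every library. It had 7281, 12105 and 8648 reads in DMSO and 7442, 7648 and 7965 after STM2457. All 3 STM2457 libraries lay within the DMSO range, above DMSO replicate 1 and below replicates 2 and 3. The ratio was 0.835 (0.563 to 1.24, adjusted p = 0.35), and without DMSO replicate 2 it was 0.958 (0.855 to 1.07, adjusted p = 0.43). Falls to the ratios found for Cxcl1, Cxcl5 and Ccl20 lie outside the interval from all 6 libraries. That sets only their point values against it. The interval of Ccl20 (0.0902 to 0.758) overlaps that of Ccl2, and these fits did not test a difference between genes. The narrower interval of Ccl2, without DMSO replicate 2, rests on DMSO replicates 1 and 3 only and comes from a limma-voom fit chosen after seeing the data.

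Ccl7, the neighbour of Ccl2 and a second CCR2 ligand, had 551, 1171 and 820 reads in DMSO and 756, 777 and 866 after STM2457, again inside the DMSO range. The ratio was 0.979 (0.547 to 1.76, adjusted p = 0.91). Without DMSO replicate 2 it lay on the other side of 1, at 1.18 (0.755 to 1.83, adjusted p = 0.45). The data therefore bound the change of Ccl7 only loosely.

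**Figure D2:**
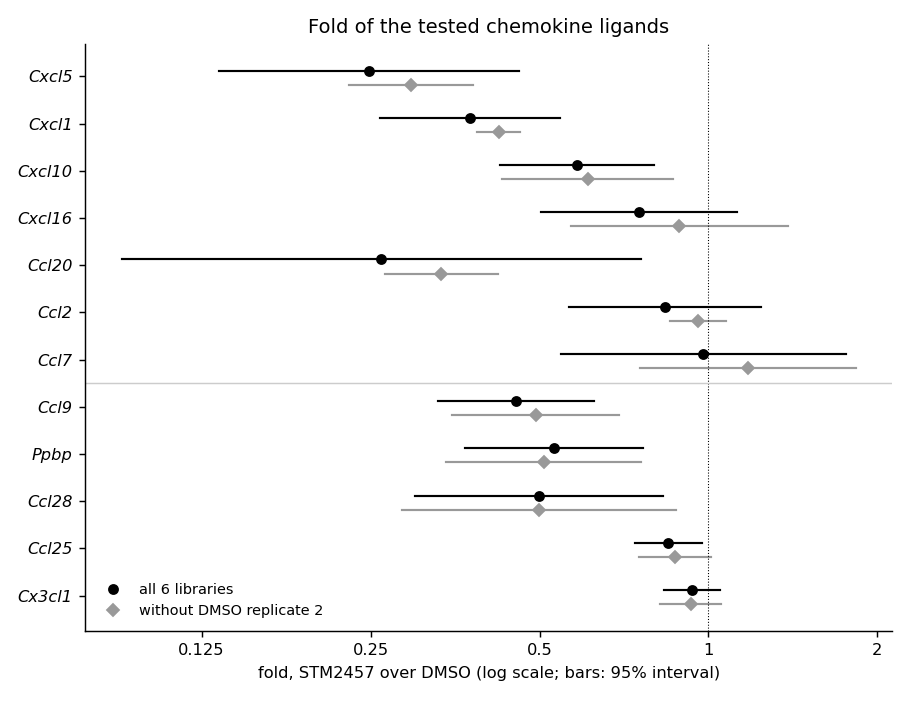
Fold of STM2457 over DMSO (log axis, dotted line at 1) for the 7 tested ligands described here, above the grey line, and the 5 other chemokine ligands that were tested, below it, from limma-voom on recovered reads. Bars are 95% intervals; black circles use all 6 libraries and grey diamonds leave out DMSO replicate 2, where Cxcl1, Cxcl5 and Ccl20 stay at 0.423, 0.295 and 0.334 and Ccl2 at 0.958.

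Across the genes with a call, the groups did not overlap in 4 of the 7 tested ligands, all 4 with STM2457 below, where 28.4% of all tested genes were separated in that direction. At least 2-fold falls (adjusted p under 0.05 by limma-voom) were 3 of the 7, those of Cxcl1, Cxcl5 and Ccl20, where 2.87% of all tested genes fell that far. Because the ligands were chosen with earlier results of these data known, these shares do not measure an enrichment. In all 7 tested ligands DMSO replicate 2 was the highest DMSO library, which held for 34.5% of all tested genes. The excess of that library over the mean of DMSO replicates 1 and 3 ran from 1.14-fold for Cxcl10 through 1.41-fold for Cxcl1 and 1.5-fold for Ccl2 to 2.05-fold for Ccl20. Over the 7 its median was 0.71 on the log2 scale, against -0.0031 over all tested genes. The same 4 ligands passed the test as lower without that library, where 24.7% of all tested genes were lower and 30% higher.

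Since DMSO replicate 2 was the highest for all 7, their reads were also set against those of Ccl2 in the same library, a comparison added after the values had been seen. Cxcl1 stood at 38.5, 36.1 and 38.3 reads per 100 Ccl2 reads in DMSO and at 18, 16.7 and 16.2 after STM2457. On this scale DMSO replicate 2 was the lowest of its group for Cxcl1, and the ratio fell to 0.451 of its DMSO value. Cxcl5 had 1.62, 1.97 and 1.98 reads per 100 of Ccl2 in DMSO and 0.564, 0.575 and 0.502 after STM2457, a fall to 0.295. Ccl20 went from 2.50 ± 0.523 to 0.775 ± 0.127 and Cxcl10 from 0.424 ± 0.0809 to 0.294 ± 0.0567 (mean ± SD, n = 3). Ccl7 was the exception in direction, with 8.91 ± 1.16 in DMSO and 10.4 ± 0.412 after STM2457. In 5 of the 6 ratios the groups did not overlap, and Cxcl16 overlapped. How many of all tested genes separate when divided by Ccl2 was not counted, so this count has no background share beside it. Each of the 5 had an exact permutation p of 0.1 (two-sided, adjusted over the 6 pairs 0.12), which is the smallest that 3 libraries against 3 can give, so this test cannot pass the threshold here, and no other test of the ratios was run.

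**Figure D3:**
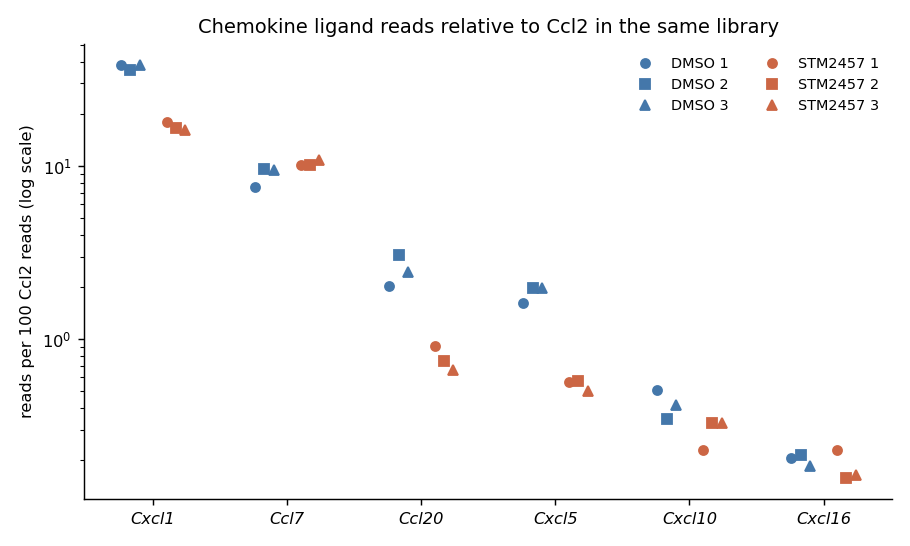
Reads of each ligand per 100 reads of Ccl2 in the same library (log axis), with DMSO in blue and STM2457 in orange and replicates 1, 2 and 3 as circle, square and triangle. The Cxcl1 points lie at 36.1 to 38.5 in DMSO and 16.2 to 18 after STM2457, while the Ccl7 points are slightly higher after STM2457.

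Summed over all 38 listed chemokine ligand genes, DMSO libraries held 11527, 18957 and 13876 reads and STM2457 libraries 10213, 10357 and 10761. The 10 ligands made up 94.9% to 96.7% of these reads in every library. The sum was 837 ± 215 CPM in DMSO and 583 ± 16.5 CPM after STM2457 (SD, n = 3), with no overlap (exact permutation p = 0.1, the smallest possible). Ccl2 took 63.1% ± 0.767 of the ligand reads in DMSO and 73.6% ± 0.620 after STM2457, and Cxcl1 took 23.8% ± 0.657 and 12.5% ± 0.587 (SD, n = 3, exact permutation p = 0.1 for each). As shares of a sum these values are tied to each other, so a rise in the share of Ccl2 is not a rise in its reads.

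Set on a per-length scale (CPM per kb of exon), the DMSO levels ran from Ccl2 (463 ± 120.4) over Cxcl1 (105 ± 23.4), Ccl7 (59.6 ± 21.6), Ccl20 (9.60 ± 4.50) and Cxcl5 (5.32 ± 1.81) to Cxcl10 (0.960 ± 0.0744), Cxcl16 (0.354 ± 0.111), Cxcl2 (0.200 ± 0.0640) and Cxcl3 (0.0431 ± 0.0338; SD, n = 3). The neighbours Ccl20 and Cxcl5 lay within the spread of Ccl20. After STM2457 Ccl7 stood at 55.9 ± 4.0 and Cxcl1 at 38.9 ± 1.05 CPM per kb. The length used is that of all annotated exons merged, 1875 bases for Cxcl1 and 801 for Ccl7. Their longest complete coding transcripts have 953 and 801 bases. Without division by length Cxcl1 stayed above Ccl7 after STM2457 (73.0 against 44.8 CPM). The order of Cxcl1 and Ccl7 after STM2457 therefore depends on the length used. Merged exons are also longer than the coding transcript for Cxcl3 (3498 against 1016 bases). Ccl2 was still first, at 378 ± 12.5.

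The ligands sit in 2 gene clusters and at 4 other sites. In the GENCODE M21 annotation of GRCm38, Cxcl5 (chromosome 5, 90759360 to 90761624, plus strand) opens a run of CXC genes in which Ppbp, Pf4, Cxcl3 and Cxcl15 follow, with Cxcl1 (90891241 to 90893115) and Cxcl2 (90903871 to 90905938) at the far end. Within that run expression was uneven: Cxcl1 had 1275 to 4369 reads, while its neighbour Cxcl2 had at most 10, and Pf4 and Cxcl15 had at most 2. Ppbp, which encodes another neutrophil attractant of platelets and sits between Cxcl5 and Pf4, had 37, 27 and 25 reads in DMSO and 20, 13 and 14 after STM2457. The groups did not overlap, and Ppbp fell to 0.531 of its DMSO level (0.368 to 0.766, adjusted p = 0.0034). Its DMSO replicate 2 was not high.

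In the CC cluster on chromosome 11, Ccl2 (82035571 to 82037453, plus strand) and Ccl7 (82045712 to 82047525, plus strand) were read, and Ccl11, Ccl12, Ccl8 and Ccl1 had at most 4 reads in any library. The other 4 ligands lie outside these 2 runs: Cxcl10 (chromosome 5, 92346638 to 92348889) and Cxcl16 (chromosome 11, 70453983 to 70459984) are read from the minus strand, and Ccl20 (chromosome 1, 83116766 to 83119167) and Cxcl12 (chromosome 6, 117168535 to 117181367) from the plus strand.

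**Figure D4:**
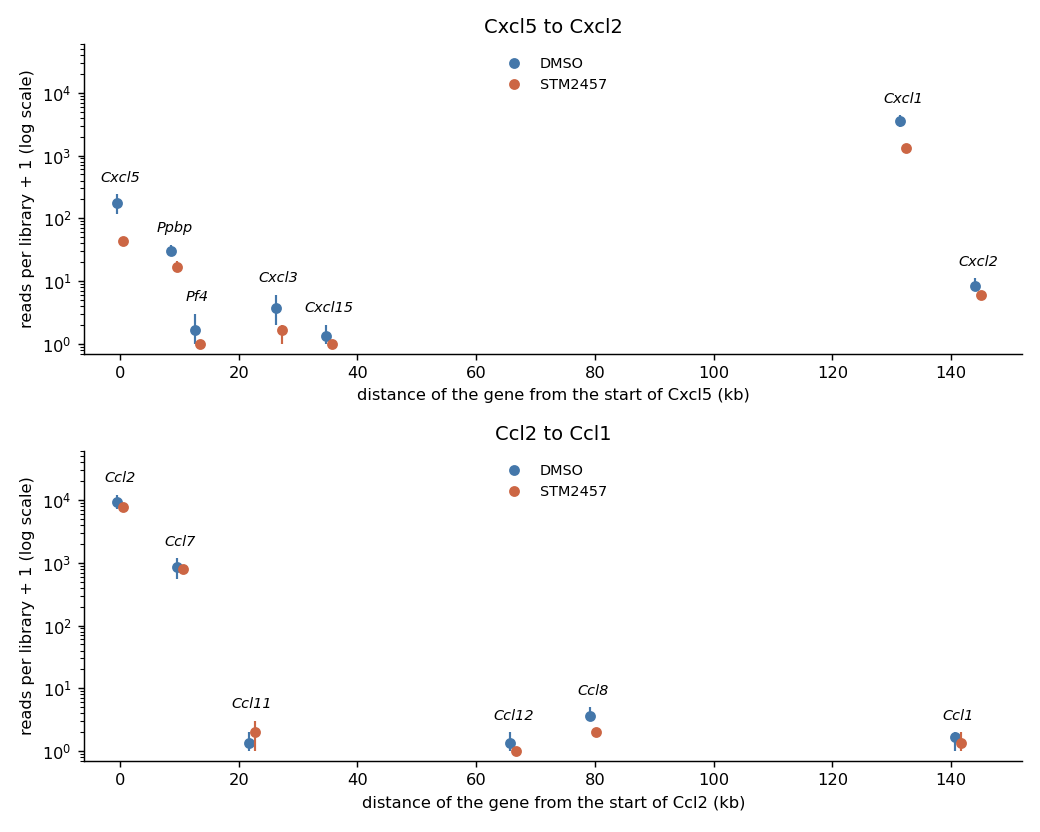
Mean recovered reads plus 1 (log axis; vertical lines from the lowest to the highest library) of the protein-coding genes of both chemokine clusters, by distance in kb from the start of Cxcl5 or Ccl2. DMSO (blue) lies above STM2457 (orange) for Cxcl5, Ppbp and Cxcl1, the ranges meet for Ccl2 and Ccl7, and most other genes have at most 10 reads.

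Of the 28 other chemokine ligand genes, 22 stayed under 3 reads in every library and 5 were tested. Of these 5, 4 fell and 0 rose, where 25.7% of all tested genes were lower and 30.7% higher, and their median was 0.531 of the DMSO level. Ccl9, a CCR1 ligand, had 38, 59 and 55 reads in DMSO and 26, 23 and 19 after STM2457 and fell to 0.454 (0.329 to 0.625, adjusted p = 4.5e-05). Ccl28, a mucosal ligand of CCR10, went from 9, 14 and 21 to 5, 6 and 10 reads, with overlap between the groups (0.499, adjusted p = 0.033). Ccl25 was called lower at 0.848 (adjusted p = 0.037), but not without DMSO replicate 2 (adjusted p = 0.11), and its exons share 204 bases with the much more abundant Elavl1 on the other strand. The membrane-bound chemokine gene Cx3cl1 had 275, 304 and 338 reads in DMSO and 280, 284 and 296 after STM2457 and did not pass (0.935, 0.832 to 1.05, adjusted p = 0.30). Without DMSO replicate 2, 3 of the 5 fell, where 24.7% of all tested genes did.

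Of 23 chemokine receptor genes, 19 stayed under 3 reads in every library, and Cxcr4, Cxcr2, Ccr2 and Ccr6, the receptors of several ligands above, had 0 in all 6. Only Ackr3, the scavenging receptor of CXCL12, was tested. It had 983, 816 and 991 reads in DMSO and 502, 423 and 493 after STM2457, with DMSO replicate 2 the lowest of its group, and it fell to 0.506 (0.441 to 0.580, adjusted p = 3.3e-07).

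Genes that act before and after chemokine transcription showed both directions. Of 21 cytokine receptors and adaptors, 9 rose and 3 fell (13 and 3 without DMSO replicate 2), with a median of 1.10. The adaptor genes Myd88 (1.59-fold), which passes on IL-1 and Toll-like receptor signals, Traf3ip2 (1.45-fold), which passes on IL-17 signals, and Ticam1 (1.34-fold) rose, and Il6st, the shared IL-6 receptor chain, fell to 0.805. Exons of Myd88 and Traf3ip2 share bases with genes on the other strand. Of 19 NF-kappa-B subunits and inhibitors, 9 rose and 6 fell, with a median of 1.04. Rela, the main activating subunit, rose 1.27-fold and the inhibitor gene Nfkbie 1.44-fold, while Tab1, for an activator of the kinase TAK1, fell to 0.763. Nfkbiz, whose product IκBζ is a nuclear cofactor at inflammatory promoters, fell to 0.719, from 1083, 1161 and 1140 to 843, 788 and 819 reads.

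Among 15 tested transcription factor genes of other families, 2 rose and 6 fell (2 and 5 without DMSO replicate 2), with a median of 1.06. Atf4 fell to 0.660, Hif1a to 0.795 and Atf3 to 0.491, and Irf3, whose exons share bases with Bcl2l12, rose 1.28-fold. Atf3 was also highest in DMSO replicate 2 of its group, with 299, 452 and 365 reads. Of 13 genes for proteins that act on chemokine mRNA or signal to such proteins, 8 rose and 3 fell, with a median of 1.15. The decay factor genes Rc3h1 and Khsrp rose 1.29-fold and 1.15-fold and the kinase gene Mapk14 1.19-fold, and Tia1, which binds AU-rich RNA, fell to 0.784. Of 10 tested genes for proteases, their partners and heparan sulfate, 5 rose and 1 fell, with a median of 1.08. Adam10, which sheds CXCL16 and CX3CL1, rose 1.18-fold, Mmp14 1.44-fold and the proteoglycan gene Sdc1 1.18-fold, and Rhbdf2 fell to 0.790. The adjusted p-values of the genes named from these lists were at most 0.00013, and the counts stand beside 30.7% of all tested genes higher and 25.7% lower.

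**Figure D5:**
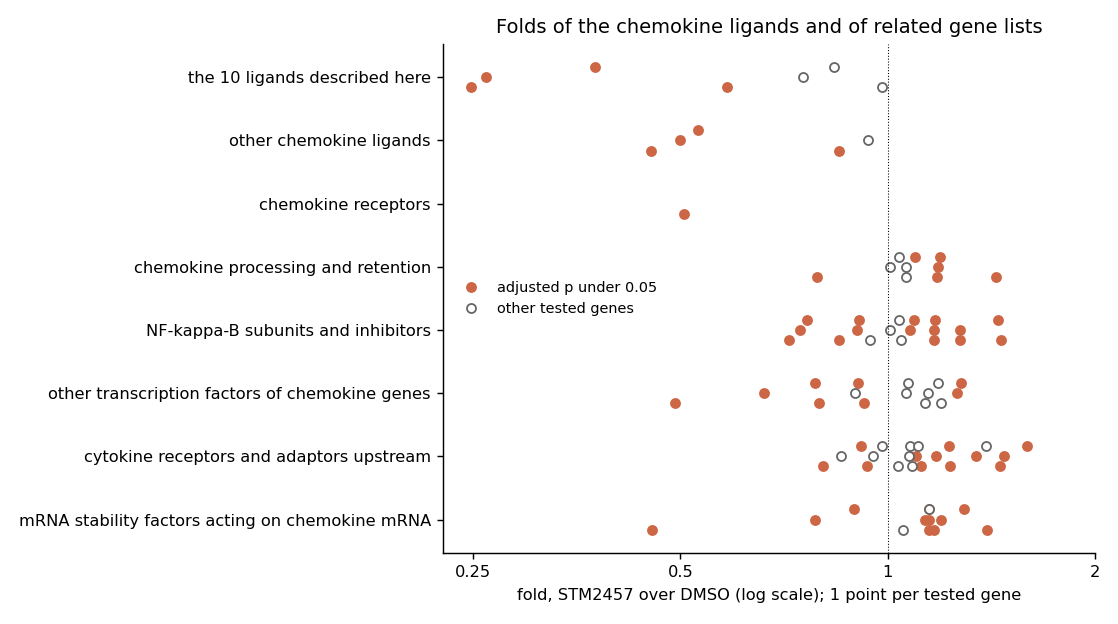
Fold of STM2457 over DMSO (log axis, dotted line at 1) for each tested gene of the 10 ligands and of 7 related lists, 1 point per gene, filled where the adjusted p was under 0.05. The filled points of both ligand rows lie left of 1, from 0.249 to 0.848, while the rows for NF-kappa-B and the cytokine receptors have filled points on both sides.

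The 10 transcripts were also compared by sequence. The pentamer ATTTA, the core of AU-rich elements, was counted after the stop codon in the longest complete coding transcript of each gene. Cxcl1 holds 7 in 592 bases (11.8 per kb), Ccl20 9 in 1050 (8.57 per kb), Cxcl5 5 in 1111 (4.50 per kb) and Cxcl10 3 in 996 (3.01 per kb). Ccl2 holds 1 in 275 bases (3.64 per kb) and Ccl7 2 in 435 (4.60 per kb), while the median over 11001 tested coding genes was 1.35 per kb. The barely read Cxcl2 and Cxcl3 hold 7.36 and 7.75 per kb, Cxcl16 1.41 and Cxcl12 0.771. GGACT, a common form of the m6A consensus, occurs 2 times in Cxcl1, 1 time each in Cxcl5, Cxcl10, Ccl2, Ccl7 and Ccl20, 0 times in Cxcl2 and Cxcl3, 4 times in Cxcl16 and 10 times in Cxcl12. The median over the tested coding genes was 3 per transcript. These counts are not divided by length: the median tested transcript has 3170 bases, longer than that of each ligand except Cxcl12 (5627 bases). m6A was not measured in these libraries, and the counts describe letters only.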

How the data were processed

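Per the labels, RNA of the treated cells was taken with TRIzol and sequenced from SMARTER mRNA-Seq libraries. The submitters' processing notes name FastQC 0.11.9, HISAT2 2.2.1, featureCounts 2.0.1, DESeq2 and build GRCm38. Strand use, annotation and transform are not stated there. The authors deposited log2 values per gene symbol, of the form of a regularised log2 transform. Columns were matched to samples by name.

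Reads were recovered by inverting that transform, estimating from the values a ridge penalty (60.2), size factors (0.995 to 1.01) and a dispersion (0.0111 plus 1.90 divided by the mean). Under a mean of 500 reads 98.8% of recovered values were whole to within 0.05 reads, from 500 to 2000 reads 88.3% and above that 69.5%. Values were rounded. Those of Cxcl1, Cxcl5 and Ccl2 lay up to 0.374, 0.486 and 0.323 reads from a whole number. The total of 3 reads allowed by a count of 0 covers counting error only.

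The main test was limma 3.58.1 (R 4.3.3, trend, robust priors by statmod 1.5.0) on the deposited log2 values, with the group as the only term, no pseudocount and a filter at a mean of 3.322 (log2 of 10 reads). Folds came from limma-voom on the recovered reads, and the limma-voom fit without DMSO replicate 2 was added after the data were seen. Ratios to Ccl2 were tested by exact permutation (scipy 1.17.1). Alternatives were upper-quartile centring, no filter or one at 50 reads, a pseudocount of 1, limma-voom, no trend or robust priors, the replicate number as a block and leaving out each library. For the contrast of STM2457 with DMSO, simulated on 12627 genes, limma called 98 of 100 genes changed by a log2 of 1, 80 of 100 changed by 0.5 and 6 of 12427 unchanged genes. The simulation gave all genes the same low dispersion in both groups. Its rates therefore do not describe ligands that varied widely in DMSO (coefficients of variation from 22.2% for Cxcl1 to 46.8% for Ccl20).

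The ligands and lists were chosen with earlier results of these data known. Named genes are the 10 ligands, other tested ligands and receptors, up to 4 called genes of smallest adjusted p per list, and Mettl3; Atf3's libraries and Arid5a were added after their values were seen.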

Additional observations from a re-analysis of the deposited data

How the results depend on the processing

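Cxcl1, Cxcl5 and Cxcl10 kept their direction and their call in every alternative that tested them, with adjusted p-values up to 0.027, 0.037 and 0.028, and Ccl2 stayed without a call (0.11 to 0.53). The filter at 50 reads left Cxcl10 and Cxcl16 untested. Ccl20 lost its call in 6 of 14 alternatives (adjusted p up to 0.1) and Cxcl16 gained one in 1 of 13. Ccl7, which had no call, ran from -0.17 to 0.12 on the log2 scale with libraries left out in turn, changing sign without DMSO replicate 2 (0.12), and stood at 0.23 without it by limma-voom, an alternative chosen after seeing the data. The count of ligands called lower was 3 to 5 and that called higher 0. With libraries left out in turn, 3 or 4 ligands, and 2704 to 3152 of all tested genes, were lower, and 3402 to 3797 were higher. Upper-quartile centring moved the median log2 difference of all tested genes from 0.0038 to -0.034 and gave 4814 lower and 2819 higher genes against 3240 and 3868. In the fit with the replicate block, 3226 genes were lower and 3864 higher, and 3 ligands were lower, Ccl20 having lost its call (0.087). Deviations from the group mean over 12618 genes correlated at 0.050, 0.011 and 0.040 between libraries of the same number. Between libraries of different numbers the correlations ran from -0.056 to 0.022. Values this small cannot settle whether the numbers pair the libraries. Depth limits Cxcl2, Cxcl3 and Cxcl12, and p-values cover only the spread between 3 libraries a group.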

Other observations

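Of the tested chemokine ligands with a mean of at least 100 reads, 5 of the 10 described above varied widely between DMSO libraries, and Ccl25 and Cx3cl1 varied less. Of 9752 tested genes with a mean of at least 100 reads, the median coefficient of variation was 4.46% in DMSO and 3.40% after STM2457. Cxcl1 stood at 22.2% in DMSO and 2.70% after STM2457, Ccl2 at 26.0% and 3.29%, Cxcl5 at 33.9% and 4.91%, Ccl7 at 36.2% and 7.15% and Ccl20 at 46.8% and 13.2%. In DMSO no more than 0.349% of these genes varied more than any of the 5 ligands. After STM2457 62.4% varied more than Cxcl1 and 51.9% more than Ccl2, while for Ccl20 it was 1.71%. In DMSO Ccl25 stood at 4.77% and Cx3cl1 at 10.5%. The tested ligands under 100 reads differed, with Cxcl10 at 7.75%, Ccl9 at 21.7%, Ppbp at 21.8%, Cxcl16 at 31.4% and Ccl28 at 41.4%. With 3 libraries a group the difference in spread was not tested.

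Arid5a, whose product binds and stabilises mRNAs of inflammatory genes such as Il6, followed a like course and was picked out after its values were seen. It had 254, 445 and 329 reads in DMSO and 174, 157 and 130 after STM2457, fell to 0.454 of its DMSO level (0.273 to 0.755, limma adjusted p = 0.018) and stood 1.51-fold higher in DMSO replicate 2 than in the mean of DMSO replicates 1 and 3. Without that library it was at 0.523 (adjusted p = 7.4e-07).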
